A study of Mus musculus with 9 samples.

Results

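Cell cycle and mitosis genes were examined in sorted splenic B cells of mice. The set is a list of 50 genes, from the D and E cyclins to the motors and kinases of mitosis, and a member is a gene whose symbol is on the list. All 50 were found among the 24346 genes of the files, and 46 of them averaged 0.5 FPKM or more across the 9 libraries and were tested together with all other genes that reached this level, 11117 in all. FPKM gives the fragments of a gene relative to its transcript length and to the mapped reads of the library, so that levels of different genes can be set beside each other per length.

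The cells came from wild-type C57BL6 mice that carried no transgene and received no treatment. Follicular (FO) B cells, the resting recirculating B cells of the spleen, were sorted by a gate that included B220hiCD43-CD23+CD21lo from young mice of 8 weeks and from aged mice of 50 weeks. Age-associated B cells (ABCs), which accumulate with age and in autoimmunity, were sorted by a gate that included B220hiCD43-CD23-CD21loCD11b+CD11c+ from aged mice of 50 weeks. There were 3 libraries per group, each from a separate mouse by the figure legends of the paper. Whether aged FO B cells and ABCs were taken from the same animals is not stated. ABCs of young mice were not analysed here, so that the cell type and the age of ABCs cannot be told apart in a comparison with young FO B cells. The groups differ by a gate, and a sorted population is a mixture of cells in unknown phases of the cell cycle.

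Cells in the resting state (G0) enter the cycle when D cyclins and then cyclin E activate their kinases, which release E2F transcription factors from the retinoblastoma protein. E2F factors switch on genes for S phase, such as those of the MCM helicase and of deoxynucleotide synthesis, and the mitotic genes follow later under MYBL2, FOXM1 and the MuvB complex. Resting FO B cells divide little, whereas B cells divide rapidly in germinal centers and as plasmablasts.

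Sequencing was of like depth in all groups, with about 7390000 to 8990000 mapped reads per library, estimated from the FPKM value that 1 read gives, and 10032 to 10445 genes at 1 FPKM or more. All 7 B lineage markers examined were above 1 FPKM in every library. The genes behind the gates followed the labels. Fcer2a, which encodes CD23, was at 697 FPKM or more in FO B cells and at 0.464 to 6.95 FPKM in ABCs, and Itgax, which encodes CD11c, was at 45.0 to 59.7 FPKM in ABCs and at no more than 0.206 FPKM in FO B cells. ABC replicate 3 stood apart for the cell cycle genes: it had the highest value of all 9 libraries for 34 of the 46 genes tested (73.9%), against 22.8% of all genes tested. Counts of called genes over the whole list in ABCs are therefore given with and without it, and so are the values of several genes that it moved. Counts by role include it.

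The levels of the list covered a wide range. The DNA replication clamp gene Pcna was at 90.4 to 106 FPKM in the 9 libraries, and Hmgb2, a chromatin protein, at 37.3 to 53.5 FPKM. In contrast, Mki67, the gene of the proliferation marker Ki-67, was at 0.361 to 0.675 FPKM in the 6 FO B libraries. The summed level of the 50 genes was 592.8, 627.5 and 586.5 FPKM in young FO B cells, 628.1, 651.5 and 628.8 FPKM in aged FO B cells, and 726.6, 762.4 and 986.0 FPKM in ABCs. The 3 ABC libraries were thus above all FO B libraries in this sum, and ABC replicate 3 was the highest. The groups of genes that carried most of the sum were replication genes, D and E cyclins, mitotic kinases with their subunits, and centromere and mitotic chromatin genes.

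**Figure D1:**
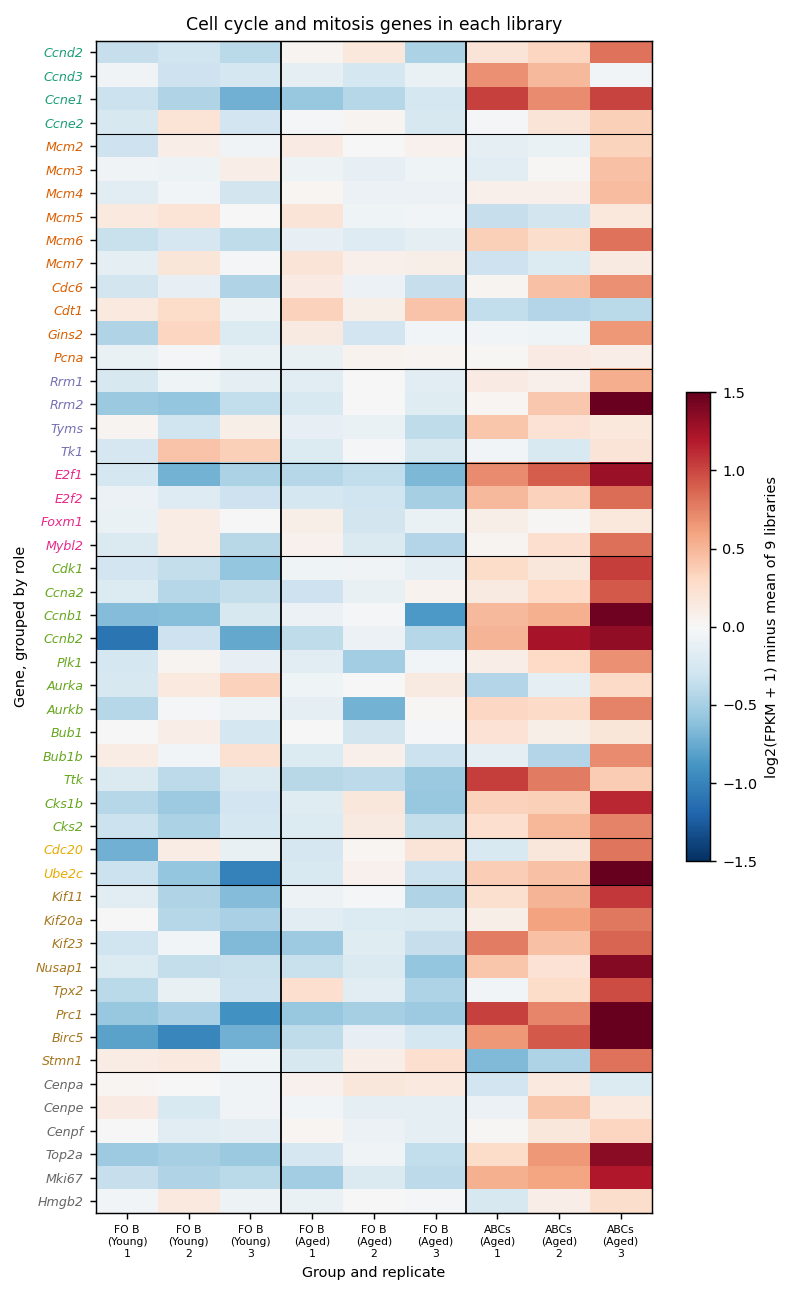
Heat map of the 50 cell cycle and mitosis genes (rows, coloured and divided by role) in the 9 libraries (columns). Colour is log2(FPKM + 1) minus the mean of the gene over the 9 libraries, red above and blue below the mean, limited to 1.5 in either direction; the column of ABC replicate 3 holds the highest value of 37 of the 50 genes.

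Promoters of the list are shown first, because the genes of S phase and those of mitosis differed in their letters. In the RefSeq promoter table of GRCm38.p6, which holds 250 bases before to 50 after each listed start, 40 of the 50 genes had an entry. Ccnd2, Ccne2, Mcm4, Gins2, Foxm1, Ccna2, Aurkb, Kif20a, Tpx2 and Stmn1 had none. A cell cycle genes homology region (CHR, TTTGAA or TTCGAA, a letter pattern at which the MuvB complex can bind), a CCAAT box (CCAAT) and E2F letters (TTTCGCGC, TTTGGCGC, TTCCCGCC or TTGGCGGG) were searched on both strands, and a gene was counted if any of its listed promoters held a match. A CHR was found in 18 of the 23 genes of the mitotic roles (78.3%), in 3 of the 17 genes of the roles in G1 and S phase (17.6%) and in 21.7% of all 27025 genes with a promoter. E2F letters were found in 1 of the 23 mitotic genes (4.35%), in 8 of the 17 others (47.1%) and in 4.29% of all genes. A CCAAT box was found in 91.3% of the mitotic genes, 58.8% of the others and 41.1% of all genes. Among the genes tested for expression, 8477 had a promoter, and 16.1% of these held a CHR, 8.51% E2F letters and 43.3% a CCAAT box. The stretches below are the 130 bases before the start of 4 mitotic genes with a CHR and of Mcm6, a replication gene with E2F letters, written 5′ to 3′ along the gene with every match in capitals, so that matches on the other strand read as the reverse complement. In Mcm6 the first capital run holds 2 E2F matches that overlap, 1 on each strand. 
Top2a, chr11:99024190-99024319, minus strand: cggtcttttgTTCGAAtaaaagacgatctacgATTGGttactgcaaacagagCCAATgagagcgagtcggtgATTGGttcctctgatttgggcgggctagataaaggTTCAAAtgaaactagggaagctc
Kif11, chr19:37376252-37376381, plus strand: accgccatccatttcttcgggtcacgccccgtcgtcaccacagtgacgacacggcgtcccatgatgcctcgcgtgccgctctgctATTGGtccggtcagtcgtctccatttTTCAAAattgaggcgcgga
Mki67, chr7:135716380-135716509, minus strand: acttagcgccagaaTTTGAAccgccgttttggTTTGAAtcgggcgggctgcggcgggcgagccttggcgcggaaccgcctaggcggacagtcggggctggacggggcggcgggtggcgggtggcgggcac
Cdk1, chr10:69352913-69353042, minus strand: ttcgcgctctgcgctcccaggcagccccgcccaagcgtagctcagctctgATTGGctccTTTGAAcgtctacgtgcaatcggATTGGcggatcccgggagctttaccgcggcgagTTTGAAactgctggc
Mcm6, chr1:128359706-128359835, minus strand: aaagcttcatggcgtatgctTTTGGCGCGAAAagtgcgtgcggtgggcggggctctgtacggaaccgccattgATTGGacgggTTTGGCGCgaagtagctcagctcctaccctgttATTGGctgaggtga
In Top2a, Kif11 and Cdk1 a CHR began 23, 19 and 15 bases before the start and a CCAAT box lay farther out, whereas the 2 matches of Mki67 began 116 and 98 bases before it. Outside the stretches printed, the listed promoters of Cdk1 also held E2F letters and those of Mki67 a CCAAT box. These matches are a description of letters, not of binding. Split by the change in ABCs, a CHR was in 50.0% of the 16 genes with a promoter that were higher in ABCs than in aged FO B cells, and in 54.2% of the other 24.

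The main comparison asked how ABCs differ from FO B cells of the same age. Of the 46 genes tested, 18 were higher in ABCs, 1 was lower and 27 were not called (limma on log2(FPKM + 1), 3 libraries against 3, Benjamini-Hochberg adjusted p under 0.05 over all genes tested). Over all 11117 genes, 18.9% were called higher and 15.9% lower. The genes that rose were Ccne1, Mcm6, Tyms, E2f1, E2f2, Ccnb1, Ccnb2, Aurkb, Ttk, Cks2, Kif11, Kif20a, Kif23, Nusap1, Prc1, Birc5, Top2a and Mki67, and the gene that fell was Cdt1. The median log2 fold change of the 46 genes was 0.57, against -0.01 over all genes tested, and 39 of the 46 had a positive value. Every ABC library was above every aged FO B library for 28 of the 46 genes, and below for 1, where 26.0% and 25.8% of all genes tested had groups that did not overlap in these directions. The log2 fold changes lay between -0.69 and 1.72 on the log2(FPKM + 1) scale. This scale makes the change of low genes small, and with a pseudocount of 0.01 the value of Ttk was 2.80. In bulk samples, more cells in cycle and more RNA of these genes per cell cannot be told apart. Ttk, Kif11 and Mki67 averaged 0.350, 0.484 and 0.491 FPKM over the 6 FO B libraries. They reached the limit of 0.5 FPKM only through their level in ABCs, and were tested under the main setting only for that reason. The median and the count of genes without overlap include these 3. With no filter on low values, Ttk and Mki67 kept their calls and Kif11 lost its call. Of the 43 genes that reached 0.5 FPKM in FO B cells, 15 were higher (34.9%) and 1 was lower (2.33%), where 17.0% and 16.5% of all 10726 such genes were. Without ABC replicate 3, 16 of the 46 were higher and 3 were lower. The median log2 fold change was then 0.35, against -0.01 over all genes tested. The shares of all genes above are of the fit with that library.

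**Figure D2:**
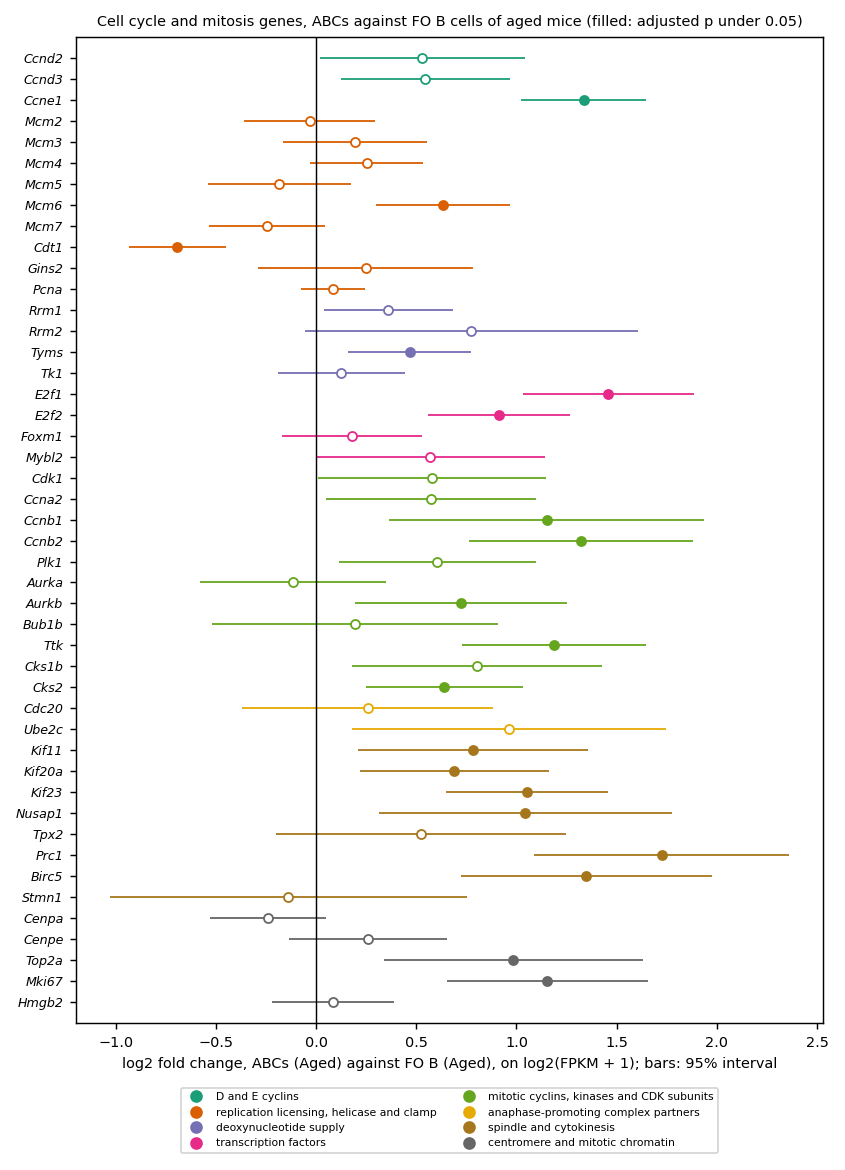
Log2 fold change of the 46 tested genes in ABCs against aged FO B cells, on the log2(FPKM + 1) scale (x axis), with 95% intervals from limma and colours by role. Filled points are the 19 genes with an adjusted p under 0.05. They lie mostly in 2 roles, spindle and cytokinesis and mitotic cyclins, kinases and CDK subunits, and the only filled point left of 0 is Cdt1.

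Among the D and E cyclins, which drive entry into the cycle, Ccne1 rose. In the GENCODE M21 annotation of GRCm38, this protein-coding gene spans chromosome 7 from 38097984 to 38107534 on the minus strand. Ccne1, whose product cyclin E1 activates CDK2 at the G1 to S boundary, was at 6.34, 7.13 and 8.12 FPKM in the aged FO B libraries and at 21.3, 16.8 and 21.1 FPKM in the ABC libraries. All 3 ABC libraries lay above all 6 FO B libraries, which gave 1.34 on the log2 scale (standard error 0.13, limma adjusted p = 0.000599) and 1.26 to 1.45 over the alternative settings. Whole reads could be recovered for this gene, 339 in the 3 aged FO B libraries and 875 in the 3 ABC libraries. Ccnd2 and Ccnd3, the D cyclins of mature B cells, were not called. Ccnd3 was at 46.7, 43.0 and 48.4 FPKM in aged FO B cells and at 83.6, 73.0 and 50.3 FPKM in ABCs, which is 0.54 on the log2 scale (standard error 0.18, limma adjusted p = 0.0523). Here ABC replicate 3 was the lowest ABC library, and without it the value was 0.75 (limma adjusted p = 0.00152). Ccnd2 was at 26.9, 29.2 and 18.5 FPKM in aged FO B cells and at 30.0, 32.8 and 46.5 FPKM in ABCs (log2 fold change 0.53, 95% interval 0.02 to 1.04, limma adjusted p = 0.0990). Ccne2 was not tested, with a mean of 0.242, 0.262 and 0.50 FPKM in young FO B cells, aged FO B cells and ABCs.

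Of the 4 transcription factors of the list, both E2F genes rose (50.0%), beside 18.9% of all genes tested. E2f1, an activator of S phase genes, was at 2.54, 2.68 and 1.98 FPKM in aged FO B cells and at 6.76, 7.89 and 10.7 FPKM in ABCs. Its level was higher in all ABC libraries (log2 fold change 1.46, standard error 0.18, limma adjusted p = 0.00144). E2f2, a second activator, was at 8.50, 8.24 and 7.08 FPKM in aged FO B cells and at 15.0, 13.5 and 19.4 FPKM in ABCs, again without overlap (0.91, standard error 0.15, limma adjusted p = 0.00427). Mybl2 and Foxm1, which act with the MuvB complex on mitotic genes, were not called. Foxm1 lay between 0.559 and 1.1 FPKM in all 9 libraries, with a log2 fold change of 0.18 and a 95% interval of -0.17 to 0.53. Mybl2 was at 1.48, 1.04 and 0.740 FPKM in aged FO B cells and at 1.43, 1.83 and 3.18 FPKM in ABCs, so that the groups overlapped (0.57, limma adjusted p = 0.110).

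The replication genes, which license origins and unwind DNA, had the lowest median of the roles. Of the 9 tested, 1 was higher and 1 was lower (11.1% each), beside 18.9% and 15.9% of all genes tested. The other 7 were not called, and the median log2 fold change was 0.09. Mcm6, a subunit of the MCM2 to MCM7 helicase, was at 39.0, 37.3 and 38.4 FPKM in aged FO B cells and at 54.8, 51.6 and 75.6 FPKM in ABCs (0.63, standard error 0.14, limma adjusted p = 0.0139). The value was 0.47 without ABC replicate 3, and the call was lost under 3 of 17 alternative settings, among them those without aged FO B replicate 2 or 3. The other 5 subunits were not called, although the helicase contains them in equal number. Their log2 fold changes were -0.03 for Mcm2, 0.19 for Mcm3, 0.25 for Mcm4, -0.18 for Mcm5 and -0.25 for Mcm7. The 95% interval for Mcm2 was -0.36 to 0.29 and that for Mcm7 was -0.54 to 0.04, both below the value of Mcm6. Without ABC replicate 3, Mcm7 was lower in ABCs (-0.38, limma adjusted p = 0.0125).

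Cdt1, which loads the helicase at origins and is destroyed once S phase begins, was the only gene of the list that fell. It was at 31.0, 25.7 and 32.6 FPKM in aged FO B cells and at 18.5, 17.4 and 18.0 FPKM in ABCs, and no ABC library reached an FO B library of either age. The gene spans chromosome 8 from 122568015 to 122573554 on the plus strand. Its log2 fold change was -0.69 (standard error 0.10, limma adjusted p = 0.00288), and it was the same, -0.69, without ABC replicate 3. The recovered reads were 1577 in aged FO B cells and 908 in ABCs. Pcna was at 90.4, 100.9 and 100.5 FPKM in aged FO B cells and at 98.6, 106 and 105 FPKM in ABCs (0.09, 95% interval -0.08 to 0.25). Gins2, of the replicative helicase complex, was not called either, at 0.25. Cdc6, the partner of CDT1 in licensing, was not tested. It had 20, 15 and 5 reads in the aged FO B libraries and 17, 37 and 47 in the ABC libraries, groups that overlapped.

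In deoxynucleotide supply, 1 gene of 4 was called. Tyms, which encodes thymidylate synthase, was at 5.13, 5.24 and 4.13 FPKM in aged FO B cells and at 7.91, 6.78 and 6.46 FPKM in ABCs (0.47, standard error 0.13, limma adjusted p = 0.0315). The libraries did not overlap, but Tyms lost its call under 7 of 17 alternative settings, including each setting without an aged FO B library and those without ABC replicate 1 or 2. Rrm2, the regulated subunit of ribonucleotide reductase, was at 5.43, 6.52 and 5.65 FPKM in aged FO B cells and at 6.68, 8.96 and 20.1 FPKM in ABCs (0.78, standard error 0.35, limma adjusted p = 0.129). ABC replicate 3 carried most of this difference, which was 0.35 without it (limma adjusted p = 0.130). Rrm1, the large subunit, had a log2 fold change of 0.36 and Tk1, the salvage kinase, of 0.13, and neither was called.

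Of the mitotic cyclins, kinases and CDK subunits tested, 5 of 11 were higher (45.5%), beside 18.9% of all genes tested, and the median log2 fold change was 0.64. The count includes Ttk, which reached the limit of 0.5 FPKM only through its level in ABCs. Ccnb1 and Ccnb2 encode the B cyclins that activate CDK1 for entry into mitosis. Ccnb2 was at 2.31, 3.04 and 2.2 FPKM in aged FO B cells and at 5.13, 9.13 and 9.83 FPKM in ABCs, without overlap (1.32, standard error 0.24, limma adjusted p = 0.00595). Ccnb1 was at 3.62, 3.84 and 1.71 FPKM in aged FO B cells and at 5.90, 6.13 and 12.5 FPKM in ABCs (1.15, standard error 0.33, limma adjusted p = 0.0352). The groups again did not overlap, but the call was lost without ABC replicate 3 (0.84, limma adjusted p = 0.0563). In all, Ccnb1 lost its call under 6 of 16 alternative settings, among them those without each aged FO B library. Cdk1 itself, the kinase that these cyclins bind, was not called. It was at 1.16, 1.18 and 1.06 FPKM in aged FO B cells and at 1.75, 1.54 and 3.65 FPKM in ABCs (0.58, 95% interval 0.01 to 1.15, limma adjusted p = 0.103), and the value was 0.31 without ABC replicate 3. Ccna2, of cyclin A2, had a value of 0.57 (limma adjusted p = 0.0857), and of 0.34 without that library.

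Ttk, the spindle checkpoint kinase also called MPS1, had the largest ratio of means of the list, 7.28, at a low level. It was at 0.295, 0.320 and 0.180 FPKM in aged FO B cells and at 2.56, 1.97 and 1.26 FPKM in ABCs. Unlike most of the list it was lowest in ABC replicate 3 among the ABC libraries, and its log2 fold change was 1.19 with (standard error 0.19, limma adjusted p = 0.00420) and 1.36 without that library. Aurkb, the kinase of the chromosomal passenger complex, was at 5.84, 3.59 and 6.57 FPKM in aged FO B cells and at 8.31, 8.15 and 11.6 FPKM in ABCs (0.72, standard error 0.22, limma adjusted p = 0.0436). This call was lost under 9 of 17 alternative settings. The related kinase gene Aurka, of the spindle poles, was not called and had overlapping groups (-0.12, 95% interval -0.58 to 0.35). Cks2, a small CDK-binding subunit, rose from 34.1 ± 6.22 to 53.7 ± 9.41 FPKM (SD, n = 3 each; 0.64, limma adjusted p = 0.0241), a call that was lost under 4 of 17 alternative settings. Its paralog Cks1b was at 18.1 ± 4.81 and 32.7 ± 11.1 FPKM (SD, n = 3 each) and was not called (0.80, limma adjusted p = 0.0536). Plk1, Bub1b and, of the anaphase-promoting complex, Cdc20 and Ube2c were not called. Ube2c, the E2 enzyme of that complex, was at 2.91, 3.80 and 2.66 FPKM in aged FO B cells and at 4.92, 5.22 and 12.8 FPKM in ABCs (0.96, standard error 0.33, limma adjusted p = 0.0615). Without ABC replicate 3 its log2 fold change was smaller, at 0.57, but the ABC libraries lay closer together and it was called (limma adjusted p = 0.0357). Bub1b and Cdc20 turned without that library, from 0.20 to -0.14 and from 0.26 to -0.02, and neither was called.

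With all 3 ABC libraries, the spindle and cytokinesis genes held the largest share of rises of the roles. It was 6 of 8 (75.0%), beside 18.9% of all genes tested. The count includes Kif11, which reached the limit of 0.5 FPKM only through its level in ABCs. Without ABC replicate 3, Kif11 and Kif20a lost their calls and Stmn1 was called lower, while Ccnd3 of the D and E cyclins was called higher. Prc1, which bundles the microtubules of the central spindle, had the largest difference of the list on the log2(FPKM + 1) scale. It was at 1.53, 1.66 and 1.58 FPKM in aged FO B cells and at 6.64, 5.22 and 12.2 FPKM in ABCs, and its log2 fold change was 1.72 (standard error 0.27, limma adjusted p = 0.00357) with a range of 1.41 to 2.23 over the alternative settings. The lowest ABC library, at 5.22 FPKM, was thus far above the highest FO B library, at 1.66 FPKM. The gene spans chromosome 7 from 80294450 to 80316259 on the plus strand. Birc5, which encodes survivin, a subunit of the chromosomal passenger complex, was at 2.99, 3.78 and 3.33 FPKM in aged FO B cells and at 7.16, 8.88 and 15.9 FPKM in ABCs (1.35, standard error 0.26, limma adjusted p = 0.00870). Kif23, a motor of the central spindle, was at 0.879, 1.41 and 1.15 FPKM in aged FO B cells and at 3.67, 2.71 and 4.02 FPKM in ABCs (1.05, standard error 0.17, limma adjusted p = 0.00413). The groups did not overlap for any of these 3 genes, and each of them kept its call in every alternative fit in which it was tested and without any single library. Prc1 and Kif23, with means under 5 FPKM, were not tested under the filter of 5 FPKM.

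Kif20a, Kif11 and Nusap1 of the same group rose as well, at lower levels and with less margin. Kif11, the motor that separates the spindle poles, was at 0.719, 0.789 and 0.317 FPKM in aged FO B cells and at 1.14, 1.58 and 2.75 FPKM in ABCs, or 27, 36 and 13 against 43, 66 and 105 reads (0.78, standard error 0.24, limma adjusted p = 0.0442). Nusap1, a microtubule-binding protein, was at 1.11, 1.29 and 0.777 FPKM in aged FO B cells and at 2.55, 2.08 and 5.89 FPKM in ABCs (1.05, limma adjusted p = 0.0377). Kif20a was at 1.09, 1.02 and 0.999 FPKM in aged FO B cells and at 1.47, 2.55 and 3.03 FPKM in ABCs (0.69, limma adjusted p = 0.0352). Without ABC replicate 3, Kif11 and Kif20a lost their calls (limma adjusted p = 0.0674 for each), as did Ccnb1 and Aurkb, whereas Nusap1 was at 0.69 (limma adjusted p = 0.0217). In all, Kif11 lost its call under 8 of 15 and Kif20a under 8 of 16 alternative settings. For both these included each aged FO B library left out. Nusap1 lost its call under 7 of 16 alternative settings, among them those without each aged FO B library and without ABC replicate 1. Tpx2 was not called (0.53, 95% interval -0.20 to 1.25). Stmn1, which binds free tubulin, was at 29.0, 36.8 and 41.3 FPKM in aged FO B cells and at 21.4, 24.7 and 61.2 FPKM in ABCs. ABC replicates 1 and 2 thus lay below and ABC replicate 3 above all aged FO B libraries, and the log2 fold change was -0.14 with (limma adjusted p = 0.798) and -0.60 without that library (limma adjusted p = 0.0294).

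Among centromere and mitotic chromatin genes, 2 of 5 rose (40.0%), beside 18.9% of all genes tested. The count includes Mki67, which reached the limit of 0.5 FPKM only through its level in ABCs. Mki67 was at 0.361, 0.675 and 0.478 FPKM in aged FO B cells and at 1.83, 1.93 and 3.49 FPKM in ABCs (1.15, standard error 0.21, limma adjusted p = 0.00676). This corresponds to 29, 66 and 42 against 148, 173 and 285 reads, and the ratio of the mean FPKM was 4.79. Top2a, the topoisomerase that untangles chromosomes before they part, was at 2.08, 2.54 and 1.84 FPKM in aged FO B cells and at 3.45, 4.75 and 8.40 FPKM in ABCs (0.99, standard error 0.27, limma adjusted p = 0.0308). Both genes had ABC libraries above all FO B libraries. Top2a lost its call under 6 of 16 alternative settings, among them those without each aged FO B library and without ABC replicate 2, and Mki67 under none of the 16 in which it was tested. Cenpa, the centromere histone, and Hmgb2, both at over 19 FPKM in every library, were not called (-0.24, 95% interval -0.53 to 0.05, and 0.08, 95% interval -0.22 to 0.39). Cenpe was not called either. Bub1 and Cenpf were not tested. Bub1 was at 0.268, 0.0490 and 0.245 FPKM in aged FO B cells and at 0.472, 0.347 and 0.439 FPKM in ABCs, without overlap, and Cenpf had 21, 15 and 9 against 20, 36 and 46 reads. Cdc6, with a mean of 0.482 FPKM over the 9 libraries, was the untested gene nearest to the limit, and Cenpe, at 0.679 FPKM, the tested one.

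**Figure D3:**
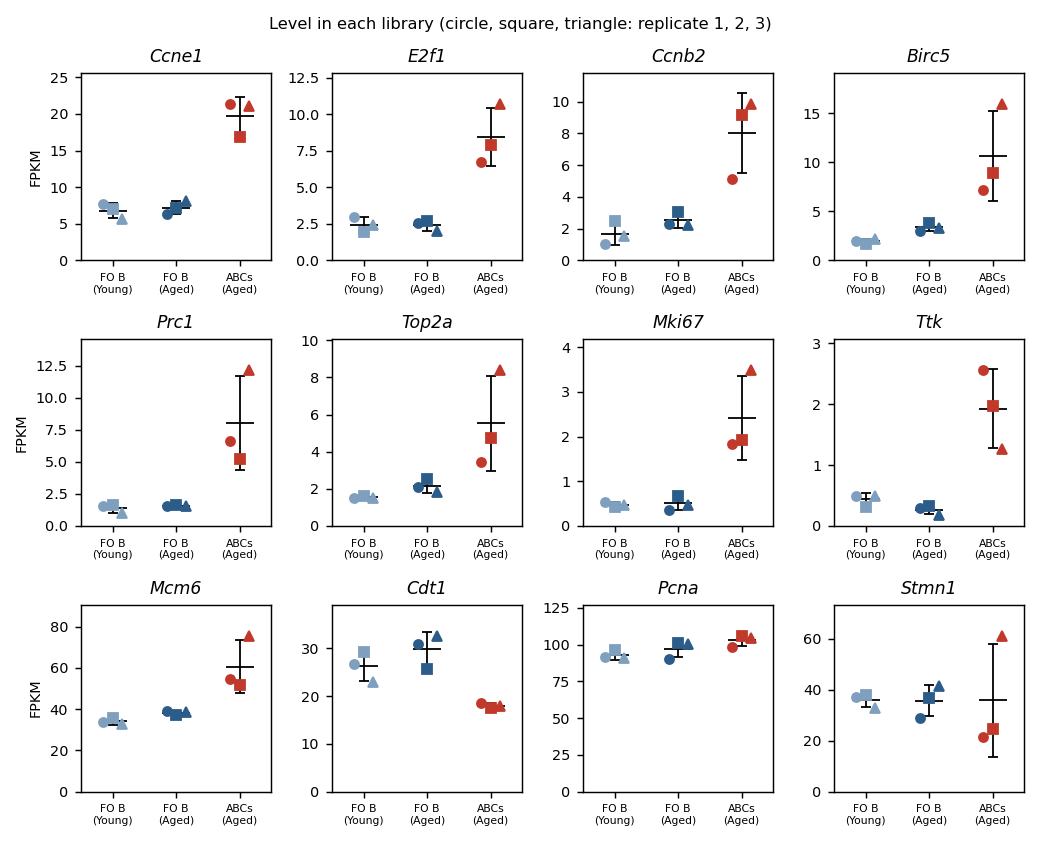
FPKM of 12 cell cycle and mitosis genes in each library (y axis from 0; circle, square and triangle are replicates 1, 2 and 3; bars are the mean and SD of 3 libraries) for young FO B cells, aged FO B cells and ABCs. Ccne1, E2f1, Ccnb2, Birc5, Prc1, Top2a, Mki67, Ttk and Mcm6 have all ABC libraries above all FO B libraries, Cdt1 has them below, and Pcna and Stmn1 overlap.

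ABC replicate 3 was examined further because it carried a large part of the higher values. It was the highest of the 3 ABC libraries for 38 of 46 genes (82.6%), against 38.5% of all genes tested. Its log2(FPKM + 1) exceeded the mean of ABC replicates 1 and 2 by a median of 0.49 over the 46 genes, against 0.00 over all genes, and by more than 0.5 for 22 of the 46 (47.8%) against 6.15% of all genes. By role, the median excess was 1.005 for the 2 anaphase-promoting complex partners, 0.89 for spindle and cytokinesis genes, 0.58 for mitotic cyclins, kinases and CDK subunits, 0.46 for replication genes and for transcription factors, 0.39 for deoxynucleotide supply, 0.34 for centromere and mitotic chromatin genes and 0.15 for the D and E cyclins. The exceptions were Ccnd3, Tyms and Ttk, which were lowest in this library among the ABCs, and Ccne1, Cdt1, Pcna, Cenpa and Cenpe, for which it lay between the other 2 ABC libraries. Without this library 16 genes were higher and 3 were lower, 14 and 1 of them the same as with it. The median log2 fold change without it was 0.35 over the 46 genes, against -0.01 over all genes tested. Ccnd3 and Ube2c were then added to the higher genes and Mcm7 and Stmn1 to the lower ones. The value without it was 1.41 for Prc1, 1.17 for Ccnb2, 1.045 for Birc5, 0.94 for Mki67, 0.77 for E2f2 and 0.69 for Top2a, all still called. For Ccne1, E2f1, E2f2, Ccnb2, Ttk, Kif23, Prc1, Birc5 and Mki67 the rise held without any single library and in every alternative fit in which the gene was tested, and for Cdt1 the decrease did. Of these, E2f1, Ccnb2, Ttk, Kif23, Prc1 and Mki67 were too low for the filter of 5 FPKM, and Ttk also for that of 1 FPKM.

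**Figure D4:**
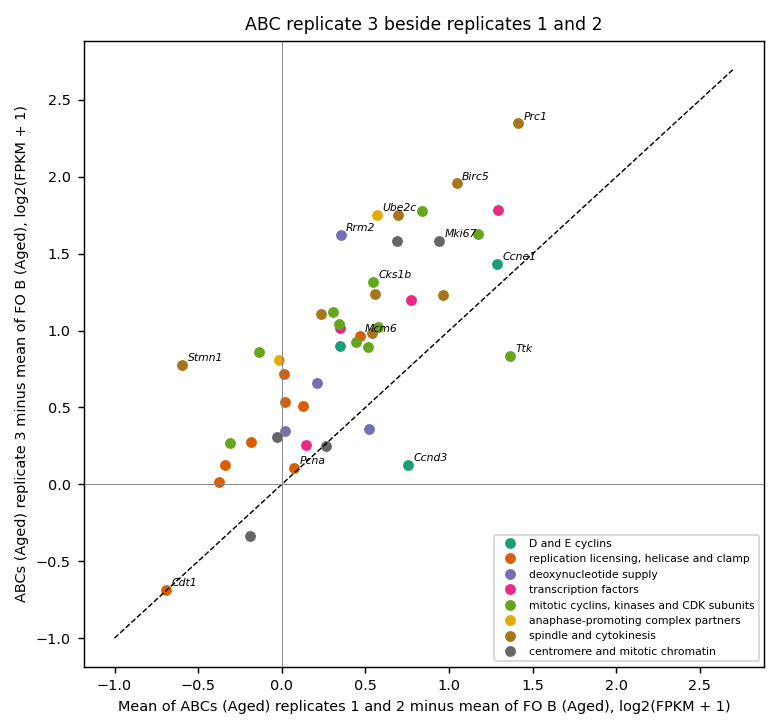
Each point is 1 of the 46 tested genes. The x axis is the mean of ABC replicates 1 and 2 and the y axis ABC replicate 3, both as log2(FPKM + 1) minus the mean of aged FO B cells. Most points lie above the dashed line of equality, by a median of 0.49, while Ttk and Ccnd3 lie below it and Cdt1 and Pcna close to it.

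Markers of other cell types were read in the same libraries, as lists that the gate could hold. The 8 plasmablast and plasma cell genes summed to 1002 to 1292 FPKM in ABCs and 445.9 to 474.4 FPKM in aged FO B cells. Higher in ABCs were 5 of the 7 tested (Derl3, Jchain, Mzb1, Prdm1 and Sdc1), or 71.4%, beside 18.9% of all genes tested. Prdm1, at a mean of 0.279 and 0.379 FPKM in young and aged FO B cells, was tested only through its level in ABCs. Of the 5, Sdc1, which encodes the plasma cell marker CD138, was at 9.54, 8.37 and 29.5 FPKM in ABC replicates 1, 2 and 3, thus highest where the mitotic genes were highest. Derl3, Xbp1 and Irf4 were also highest in replicate 3 among the ABC libraries. Jchain ran the other way, at 61.6, 40.5 and 12.5 FPKM, as did Prdm1, at 5.70, 4.74 and 2.93 FPKM, and Mzb1, at 1050, 1015 and 769 FPKM. Tnfrsf17, which encodes BCMA, was at 0 FPKM in ABC replicates 2 and 3 and at 0.611 FPKM in replicate 1. The 8 germinal center genes summed to 119.2 to 130.6 FPKM in ABCs and 49.8 to 61.9 FPKM in aged FO B cells. Fas alone made up 99.3 to 115.6 FPKM of the sum in ABCs, and the other 7 genes summed to less in ABCs, 12.4 to 19.9 FPKM, than in aged FO B cells, 36.1 to 48.4 FPKM. Of the 6 tested, Fas was higher in ABCs, whereas Bcl6, the defining factor of germinal center B cells, fell by 2.08 on the log2 scale (limma adjusted p = 0.000389) and Mef2b fell as well. Of the 7 B lineage genes, Cd22 was higher in ABCs than in aged FO B cells (1.06, limma adjusted p = 0.000103) and 4 were not called. Pax5 and Ebf1 were lower (-0.52 and -0.74, limma adjusted p = 0.00725 and 0.0152). All 8 T cell genes were under 1 FPKM in every library, and 5 of 6 NK cell genes were under 1 FPKM in ABCs, the exception being Prf1. The macrophage and monocyte genes summed to 17.9 to 22.2 FPKM in ABCs and 6.92 to 13.1 FPKM in aged FO B cells, with Cd68 and Vcam1 called higher, the neutrophil genes to at most 0.645 FPKM in ABCs, and the erythroid genes to 2.94 to 5.38 FPKM in ABCs and 9.31 to 10.5 FPKM in aged FO B cells. The part of these cells in the levels of the cell cycle genes was not tested.

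The second comparison asked whether the cell cycle genes changed with age within FO B cells. None of the 46 was called (limma, Benjamini-Hochberg adjusted p), where 0.207% of all genes tested were called higher and 0.081% lower. At an unadjusted p under 0.05 there were 6, namely Mcm6, Rrm2, Cdk1, Ube2c, Birc5 and Top2a, each with a positive value. This is 13.0% of the 46, beside 12.8% of all genes tested. The median log2 fold change was 0.07 over the 46 genes and 0.00 over all genes, and the 46 values lay between -0.33 and 0.58. Birc5 was the nearest to the threshold. It was at 1.98, 1.63 and 2.16 FPKM in young and at 2.99, 3.78 and 3.33 FPKM in aged FO B cells, without overlap (0.58, standard error 0.12, limma adjusted p = 0.167). Cdk1 was at 0.849, 0.773 and 0.512 FPKM in young and at 1.16, 1.18 and 1.06 FPKM in aged FO B cells, again without overlap (0.32, limma adjusted p = 0.312), on 50 and 81 reads in all. Top2a was at 1.53, 1.61 and 1.49 FPKM in young and at 2.08, 2.54 and 1.84 FPKM in aged FO B cells (0.31, limma adjusted p = 0.344). Of the other genes that rose in ABCs, Ccnb2 had a difference of 0.42 (95% interval -0.08 to 0.93). The interval was -0.25 to 0.40 for Ccne1, -0.36 to 0.35 for E2f1 and -0.25 to 0.29 for Mki67. These 3 intervals exclude differences of the size seen in ABCs, but do not show that the levels were equal.

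The third comparison set ABCs beside young FO B cells, and it shares the ABC libraries with the first and the young FO B libraries with the second. Of the 46 genes, 24 were higher, 1 was lower and 21 were not called, where 21.0% of all genes tested were called higher and 18.6% lower, and the median log2 fold change was 0.66. Without Ttk, Kif11 and Mki67, 21 of 43 were higher, where 19.1% of all genes that reached 0.5 FPKM in FO B cells were. Without ABC replicate 3, 23 of the 46 were higher and 3 were lower, with a median of 0.51, against -0.01 over all genes tested. The shares of all genes above are of the fit with that library. Of the 25 calls 24 were kept without ABC replicate 3, Kif20a lost its call, and Mcm5 and Stmn1 were called lower. Over all alternative settings, 16 of the 25 calls were kept throughout and 9 were lost under 1 or more. Those lost were Ccnd3, Rrm2, Cdk1, Ccna2, Aurkb, Ube2c, Kif11, Kif20a and Nusap1, with Ccnd3 lost under 10 of 17. Ccna2, Ccnd2, Ccnd3, Cdk1, Cks1b, Rrm2 and Ube2c were called here and not against aged FO B cells. The mean of each of these 7 was lower in young than in aged FO B cells, a difference that was not called. Tyms was not called here (0.32, limma adjusted p = 0.115). Ube2c, for instance, was at 2.66, 2.06 and 1.26 FPKM in young FO B cells, and was higher in ABCs by 1.44 on the log2 scale (standard error 0.35, limma adjusted p = 0.0170). The 4 largest values were 1.93 for Birc5, 1.85 for Prc1, 1.75 for Ccnb2 and 1.45 for E2f1. Cdt1 was again lower (-0.52, standard error 0.10, limma adjusted p = 0.00697), at 26.8, 29.3 and 22.9 FPKM in young FO B cells. Rrm2 and Cdk1 had ABC replicate 3 far above the other ABC libraries, at 20.1 and 3.65 FPKM, and were called with and without it. They lost their calls under 5 of 17 and 6 of 16 alternative settings, among them those without each young FO B library.

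Genes of the pathway that are not on the list were read from 5 further lists, in which 94 of 108 genes were tested. In ABCs against aged FO B cells 17 were higher (18.1%) and 9 were lower (9.57%), beside 18.9% and 15.9% of all genes tested. Of 5 CDK inhibitors tested, 3 were higher and 2 were not called. Cdkn2d, which encodes the INK4 inhibitor p19 of CDK4 and CDK6, was at 92.3, 92.6 and 99.4 FPKM in aged FO B cells and at 148, 141 and 144 FPKM in ABCs (0.60, standard error 0.06, limma adjusted p = 0.000567), and Cdkn2c of the same family rose by 0.41. Cdkn2b, the third, rose by 1.13, but averaged 0.0679 FPKM over the 6 FO B libraries and reached the limit of 0.5 FPKM only through the ABC libraries. Of 14 pocket protein, E2F and MuvB genes, 3 were higher, among them Tfdp1, the dimer partner of E2F proteins, at 11.8, 14.1 and 13.6 against 29.3, 30.5 and 26.9 FPKM (1.08, limma adjusted p = 0.000392). Of 12 other CDK and cyclin genes, 3 rose and 3 fell. Wee1, the kinase that holds CDK1 inactive, rose by 1.28 (limma adjusted p = 0.000550), whereas Pkmyt1, the other such kinase, fell by 0.98 (limma adjusted p = 0.00351) and Cdc25b, a phosphatase that activates CDKs, fell by 0.70.

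Of 29 other replication genes tested, 2 were higher (Orc1 and Orc6) and 6 were lower, 6.9% and 20.7%, with a median log2 fold change of 0.02. Orc1, at 0.353 FPKM over the 6 FO B libraries, was tested only through its level in ABCs. Pold1, the catalytic subunit of DNA polymerase delta, was at 54.8, 43.7 and 53.2 FPKM in aged FO B cells and at 23.8, 19.8 and 26.4 FPKM in ABCs (-1.09, standard error 0.13, limma adjusted p = 0.00135), and Prim1, of the primase, fell by 0.59. Of 34 other mitosis genes tested, 6 were higher (17.6%), none was lower and 28 were not called, beside 18.9% higher and 15.9% lower of all genes. The share called higher was thus close to that of all genes, but 31 of the 34 had a positive log2 fold change. Their median was 0.39, against -0.01 over all genes tested. Every ABC library was above every aged FO B library for 13 of the 34, and below for 1, beside 26.0% and 25.8% of all genes. The 34 include Nuf2, Kif15, Kif18b and Hmmr, which were tested only through their level in ABCs. Racgap1, the partner of KIF23 in the centralspindlin complex, was at 3.61, 3.05 and 4.17 FPKM in aged FO B cells and at 24.8, 21.8 and 35.8 FPKM in ABCs. The difference of 2.60 on the log2 scale (standard error 0.19, limma adjusted p = 0.000235) was larger than that of any gene of the main list, Prc1 and Kif23 of the central spindle included. Ncapg, of condensin, Cdca5 and Pbk rose by 1.12, 0.86 and 0.73. In aged against young FO B cells none of the 94 was called (limma, 7 or 7.45% at an unadjusted p under 0.05, beside 12.8% of all genes). Against young FO B cells ABCs had 25 of the 94 higher (26.6%) and 12 lower (12.8%), beside 21.0% and 18.6% of all genes.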

How the data were processed

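RNA-seq of 9 libraries was analysed, 3 per group, grouped by sample title. The authors made cDNA with SMART-Seq HT, Nextera libraries and 101-base single-end reads, and deposited 1 FPKM value for each gene symbol of each library. The submitters' processing notes name TopHat2 2.1.1, Bowtie2 2.2.8, SAMtools 0.1.18 and Cuffdiff 2.2.1 on mm10, whereas the methods of the paper name other versions of the mapping tools and Cufflinks. The gene annotation is not given in the sources used here. How reads of near-identical copies or overlapping genes were shared is not stated.

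From these values log2(FPKM + 1) was computed and a limma 3.58.1 model (lmFit, eBayes with a trend, no covariate) was fitted under R 4.3.3 to the 6 libraries of each comparison, over genes that averaged 0.5 FPKM or more across the 9 libraries. Genes were called at a Benjamini-Hochberg adjusted p under 0.05 over all genes tested. The pseudocount of 1 makes fold changes of low genes smaller than they are. p-values measure the spread between 3 libraries per group. The steps were tested on simulated data. No batch is named in the labels.

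Depth was estimated from the value of 1 read, and whole reads (tolerance 0.02) were recovered for 26 of the 50 genes, for counting error only. Gene positions are of GENCODE M21, promoters of RefSeq, both on GRCm38.

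The members and lists were chosen with earlier results of these data known. Values per library were given for genes called in any comparison, up to 25 by size of change, and the 5 highest others, and any member could be named. Tyms, Foxm1, Mybl2, Bub1, Cdc6, Cenpf, the genes of the gates and defining markers of other cells were added after their values were seen. Of a pathway list at most 4 called genes were named. The results were recomputed with pseudocounts of 0.1 and 0.01, without a filter, with filters of 1 and 5 FPKM, quantile normalization, TPM, upper quartile scaling, no trend, all 9 libraries, a replicate block, stricter call rules and each library left out. Of the genes listed for other cells, 3 had no row. Some listed marker genes are not reported here. Python 3.11.15, pandas 2.3.3, numpy 2.4.6 and matplotlib 3.10.9 were used.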

Additional observations from a re-analysis of the deposited data

How the results depend on the processing

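In ABCs against aged FO B cells, 19 of the 46 genes were called (3876 of all genes). This became 0 (197 of all genes) at an adjusted p under 0.01 with an absolute log2 fold change above 2.3, 10 (2046) at an adjusted p under 0.01 alone, 10 of 50 with no filter on low values, 8 of 25 with a mean of at least 5 FPKM, and 10 to 19 (2546 to 3739) with each library left out in turn. The counts without FO B (Aged) replicates 1, 2 and 3 were 11, 11 and 10. In ABCs against young FO B cells, 25 (4404) became 0 (228), 16 (2486) and 12 under both stricter rules and the filter of 5 FPKM, and 16 to 26 (3079 to 4319) with each library left out. Aged against young FO B cells had 0 of these genes called under every alternative. All genes called there, 32, became 1 and 8 with the stricter rules, 21 with a pseudocount of 0.01, 19 with all 9 libraries, 3 with the replicate block and 5 to 28 with each library left out. The counts with no filter and with the filter of 5 FPKM stand here without the count over all genes. Filters and libraries left out also change the number of genes or samples tested. The cause of the other shifts was not tested.

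With the replicate number as a block, 15, 0 and 22 of the 46 genes were called in the 3 comparisons in the order given in the results, and 3417, 3 and 3569 of all genes. Whether a number marks a shared animal is not stated. The deviations of same-numbered libraries of aged FO B cells and ABCs had r = 0.077, -0.011 and 0.099, and the numbers were not taken as pairs.

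In the same comparison of aged cells, Stmn1 turned to 0.14 without ABC replicate 1 and to 0.041 without ABC replicate 2, in a range of -0.60 to 0.14, and Hmgb2 turned to -0.029 without ABC replicate 3, in a range of -0.029 to 0.23. Of 757 values of the 46 genes under alternatives in the first comparison, 677 kept their direction and side of the threshold, 58 lost a call, 13 gained one and 9 turned. The values that turned were of Mcm2, Foxm1, Aurka, Bub1b, Cdc20, Stmn1 and Hmgb2, none of which was called. With 3 libraries a group, genes at under 1 FPKM rest on few reads.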

Other observations

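The sum of each role by library shows where ABC replicate 3 departs. For spindle and cytokinesis genes it reached 45.1, 49.3 and 108 FPKM in the ABC libraries 1, 2 and 3, beside 38.8, 47.6 and 49.9 FPKM in aged FO B cells, so that the first 2 ABC libraries lay within the FO B range in this sum, in which Stmn1 weighs most. For mitotic cyclins, kinases and CDK subunits the sum was 106, 119 and 170 FPKM in ABCs and 73.5, 87.0 and 66.3 FPKM in aged FO B cells. For the D and E cyclins it was 135, 123 and 119 FPKM in ABCs, lowest in replicate 3, and 80.2, 79.8 and 75.1 FPKM in aged FO B cells. For the replication genes the ABC libraries were at 289, 299 and 365 FPKM, and the first 2 lay near or below the aged FO B libraries, at 301, 290 and 301 FPKM.

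The 4 untested genes, Ccne2, Cdc6, Bub1 and Cenpf, had means of 0.50, 0.912, 0.420 and 0.365 FPKM in ABCs and 0.262, 0.350, 0.187 and 0.156 FPKM in aged FO B cells. Of these only Bub1 had no overlap between ABCs and aged FO B cells. Between ABCs and young FO B cells, Cdc6 and Cenpf had no overlap, whereas Bub1 and Ccne2 overlapped.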
